A study of Homo sapiens with 4 samples.

Results

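Microtubules are polymers of alpha- and beta-tubulin that start from rings of gamma-tubulin. Kinesins mostly carry cargo toward their growing plus ends or work in the mitotic spindle, and cytoplasmic dynein with its cofactor dynactin carries cargo toward the minus ends. The genes described here are the human protein-coding tubulins, gamma-tubulin complex proteins, kinesin heavy and light chains, cytoplasmic dynein chains, dynactin subunits and end-binding proteins that held a peak of YTHDF2 RNA immunoprecipitation (RIP). They were found by symbol, which leaves out the kinesin CENPE. A peak was given to the gene in its exon or intron annotation, and any other peak to the gene whose span held the summit. Of 101 annotated genes of these families, 48 held a peak, or 47.5%, against 6959 of 20056 protein-coding genes (34.7%). Which of the genes were expressed cannot be read from a list of peaks, so the absence of a peak gives no level.

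The libraries were 2 of YTHDF2 RIP and 2 of input, all from HCCLM3, an established line of highly metastatic hepatocellular carcinoma cells, of wild-type genotype. YTHDF2 binds RNA that carries N6-methyladenosine and brings it to deadenylation in the cytosol. The only table was 1 list of 14858 peaks for all libraries together, so no value per library, replicate spread or depth could be given. No control pulldown is among the libraries, so a peak is enrichment over background and not binding by itself. The background is the peak caller's, from the input or the genome-wide level. RIP fragments and background at each summit were recovered from the authors' fold and p-value, and every fold below is the authors' value for 1 peak.

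Of 10 markers of hepatocytes and liver cancer, KRT8, KRT18 and APOB held a peak, but only KRT8 and KRT18 with a q of 0.01 or less. ALB, APOA1, TTR, TF, SERPINA1, FGB and AFP held none. Of 6 endothelial, fibroblast and macrophage markers, PECAM1, LUM and CD68 held a peak but none with a q of 0.01 or less. None of 5 neuron and ciliated-cell markers held one.

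The 48 genes held 85 peaks, of which 39 in 28 genes had a q of 0.01 or less, termed passing below. That was 58.3% of the 48 genes, against 53.2% of all protein-coding genes with a peak. By peaks it was 45.9%, against 40.8% of the peaks of all protein-coding genes and 37.3% of the whole list. The median best-peak fold was 2.57 for these genes and 2.61 for all protein-coding genes, which is also the fold that 3 fragments reach over the genome-wide background of 0.533. The families as a whole were thus close to the rest of the list. The counts varied between the roles, with no test of that difference. All 5 dynein light chain genes and all 3 end-binding genes with a peak passed, whereas 8 of 18 kinesin heavy chain genes did. Of 5 gamma-tubulin complex genes 3 had a peak and 1 passed.

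**Figure D1:**
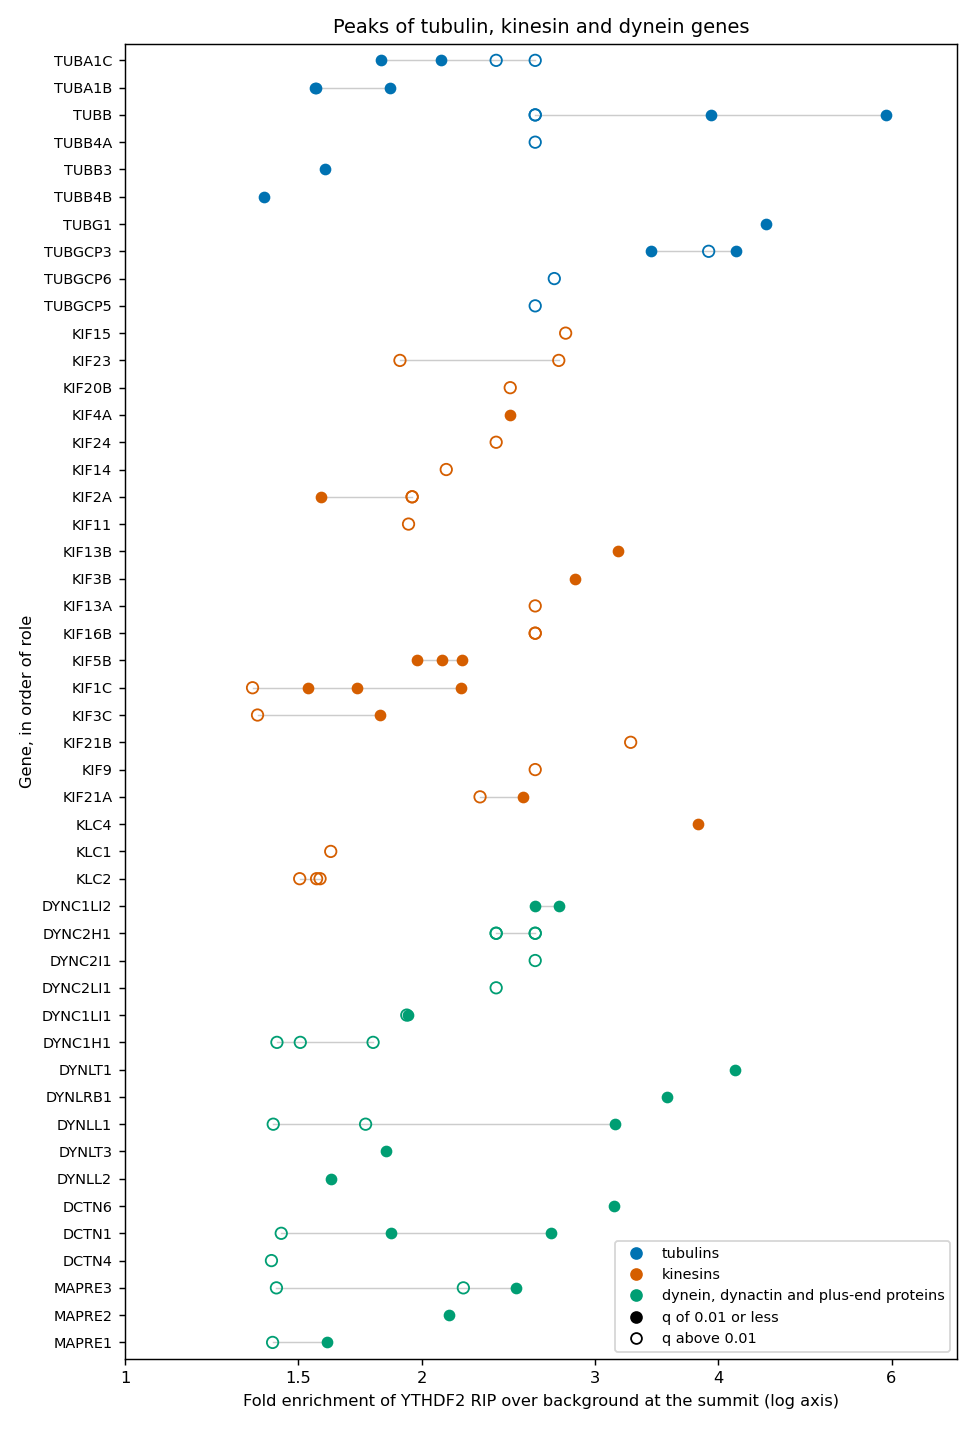
Fold enrichment of YTHDF2 RIP over background (x axis, log scale) of every peak of the 48 genes (rows, ordered by role, then by highest fold); filled points have a q of 0.01 or less, open points do not, and a line joins the peaks of a gene. The highest fold is the 5.92 of TUBB, and the open points of the dynein-2 genes and of KIF13A, KIF16B, KIF9 and KIF24 lie at 2.38 or 2.61.

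Among alpha-tubulins, the chains that pair with beta-tubulin in the microtubule wall, TUBA1B and TUBA1C held peaks with many fragments and low folds. TUBA1C had its highest passing fold, 2.09, in the 3' UTR, with 257 RIP fragments over a background of 122 (chromosome 12, 49273003 to 49273415, hg38). Its exon 2 of 4 held a peak of 1.82-fold with 180 fragments over 98.6. Its other peaks were intronic and rested on 3 fragments each. TUBA1B had 3 passing peaks, of 1.86-fold (248 fragments over 133), 1.56-fold (263 over 168) and 1.56-fold (188 over 120). The middle one lay in the 3' UTR (chromosome 12, 49127684 to 49128184), and its 263 RIP fragments were the most of any peak in these families. TUBA1A, TUBA4A and the other 6 alpha-tubulin genes held no peak. The coding sequences of alpha-tubulin genes are very alike, so the split of reads between them is uncertain.

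Among beta-tubulins, TUBB3, an isotype typical of neurons that many tumours also make, had a 3' UTR peak of 1.59-fold with 148 fragments over 92.5 (chromosome 16, 89935661 to 89936124). TUBB4B, a broadly expressed isotype, had 222 fragments over a background of 160 and a fold of 1.38 (chromosome 9, 137242779 to 137243853). This was the lowest passing fold of these families. TUBB4A had 3 fragments at its only peak, which did not pass.

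TUBB, the main beta-tubulin of dividing cells, stood apart by where its peaks lay. It held 4 peaks on 3 alternative contigs of chromosome 6 and none in its span on the chromosome itself (30720352 to 30725422). Its highest passing peak had 5.92-fold with 10 fragments over a background of 0.857. The other passing one had 3.94-fold with 8 fragments over 1.28, and the remaining 2 rested on 3 fragments each. These backgrounds lie far under those of TUBB3 and TUBB4B. No source used here says how reads that match both the chromosome and its alternative contigs were placed, and the part of that placement in these values was not tested. Without contigs of this kind, TUBB and TUBGCP5 would have no peak and 27 genes would pass.

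TUBG1, the gamma-tubulin from which microtubules are nucleated, had the highest fold on the main chromosomes. Its 3' UTR peak reached 4.48-fold with 113 RIP fragments over a background of 24.5 and a −log10 q of 33.7 (chromosome 17, 42615027 to 42615346). Its summit lay 94 bp from the annotated end of the gene. TUBG2 held no peak. Of the ring proteins that hold gamma-tubulin, TUBGCP3, a subunit of the small complex, had 3 peaks. Exon 19 of 22 reached 4.17-fold on 6 fragments, and exon 11 reached 3.42-fold with 21 fragments over 5.44. Its 3' UTR peak had 3.91-fold on 5 fragments and a −log10 q of 1.92, the nearest to the threshold among peaks that did not pass. The nearest on the other side was DYNLL2 at 2.01. TUBGCP6 (2.73-fold, 11 fragments) and TUBGCP5 (2.61-fold, 3 fragments, on an alternative contig of chromosome 15) did not pass.

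**Figure D2:**
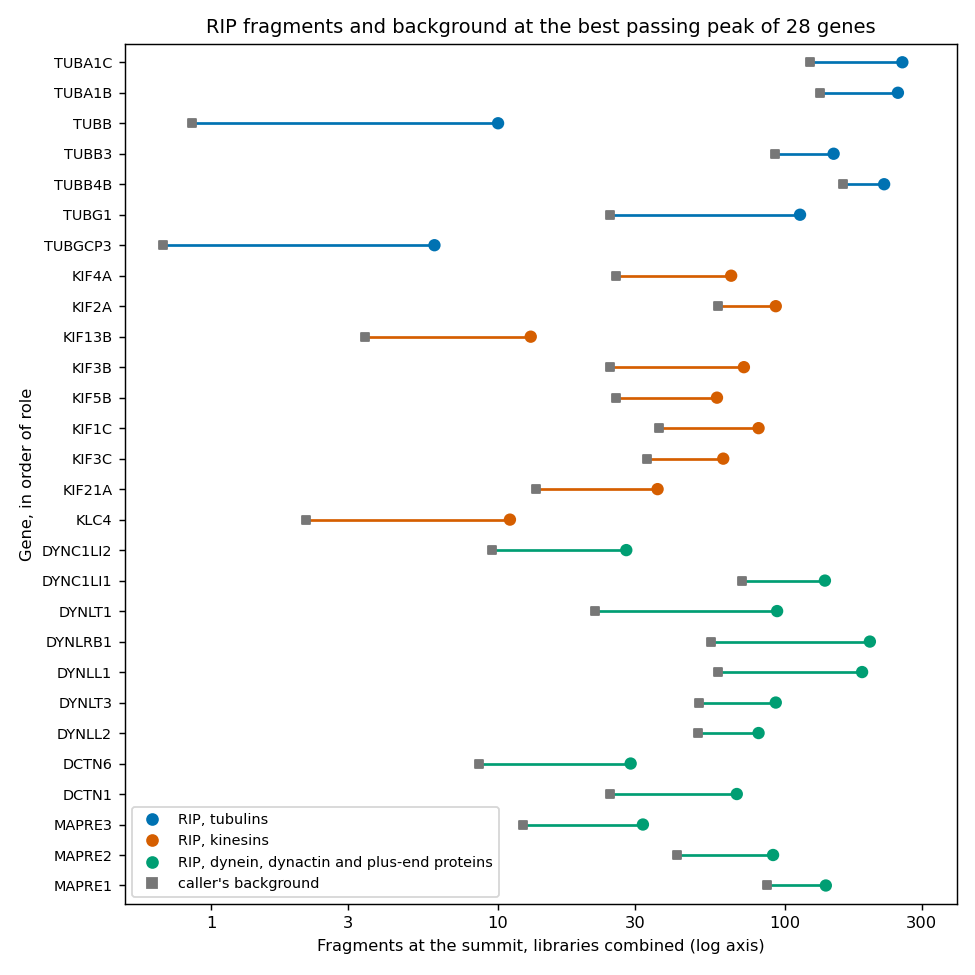
RIP fragments (coloured circles) and the caller's background (grey squares) at a summit in 28 genes (rows, ordered by role). The summit is that of the passing peak with the highest fold, and the x axis is a log scale of fragments, all libraries combined. On that scale the length of a line shows the ratio of RIP to background. The alpha-tubulins and TUBB4B have 222 to 257 RIP fragments over backgrounds of 122 to 160, and the TUBB line starts at 0.857.

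Of 16 kinesin genes grouped here as mitotic 8 held a peak and 2 of these passed, beside 53.2% of all protein-coding genes with a peak. CENPE, a mitotic kinesin that the symbols leave out, is not in these counts. It had a passing exon peak of 3.90-fold on 7 fragments over 1.05. KIF4A, a chromosome-bound kinesin that limits the length of the central spindle, had 2.46-fold in exon 22 of 31 with 65 fragments over 25.8 (chromosome X, 70395927 to 70396293). Its intronless relative KIF4B held no peak. KIF2A, a kinesin that takes microtubules apart at their ends, had 1.58-fold with 93 fragments over 58.5 in a promoter-class peak (chromosome 5, 62306467 to 62306781). Its other peaks were intronic and rested on 2 fragments each.

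The remaining 6 of this group did not pass. KIF11, which slides spindle microtubules apart, had 1.94-fold with 26 fragments over 12.9 in exon 6 of 22. KIF23, which bundles midzone microtubules for cytokinesis, had 2.76-fold in exon 6 of 24 on 13 fragments. KIF20B, of late cytokinesis, had 2.46-fold on 12 fragments, and KIF15, which backs up KIF11 in the spindle, 2.80-fold on 6. KIF14 rested on 4 fragments and KIF24 on 3. KIF18A, KIF18B, KIF20A, KIF22, KIF2C and KIFC1 were among those with no peak inside the gene. A peak that the list names for KIFC1 lay outside its span, on an alternative contig.

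Of 13 transport kinesins 7 held a peak and 5 passed. KIF5B, the ubiquitous heavy chain of kinesin-1, had 3 passing peaks spread over the gene. Its exon 8 of 26 had 2.20-fold with 58 fragments over 25.8, its exon 19 had 1.98-fold with 130 over 65.3, and a promoter-class peak had 2.10-fold with 155 over 73.4 (chromosome 10, 32055608 to 32055928). The 3 folds thus lay close together although the backgrounds differed. KIF1C, a fast kinesin-3 of vesicle transport, also had 3. Exon 9 of 23 had 2.19-fold (81 fragments over 36.4), exon 8 had 1.72-fold (85 over 48.9) and the 3' UTR 1.53-fold (228 over 148; chromosome 17, 5024016 to 5024856). A further peak of KIF1C (1.35-fold, 124 fragments) did not pass.

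KIF3B, a motor subunit of heterotrimeric kinesin-2, had 2.87-fold in exon 5 of 9 with 72 fragments over 24.5 and a −log10 q of 11.2 (chromosome 20, 32316767 to 32317139). Its relative KIF3C had 1.81-fold in the 3' UTR with 61 fragments over 33.2, and a promoter-class peak of 1.36-fold that did not pass. KIF13B, a kinesin-3, had the highest passing fold of the kinesin heavy chains counted here, 3.16, but on 13 fragments over 3.43. KIF13A and KIF16B, a kinesin of endosomes, held only intron peaks of 3 fragments. KIF1A, KIF1B, KIF3A, KIF5A, KIF5C and KIF17 held no peak.

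Among the other kinesins KIF21A, which restrains microtubule growth at the cell cortex, passed with 2.53-fold in exon 2 of 34 (36 fragments over 13.6), while its 3' UTR peak (2.29-fold, 20 fragments) did not. KIF21B (3.26-fold on 4 fragments) and KIF9 (2.61-fold on 3) did not pass. Kinesin light chains link kinesin-1 to cargo. KLC4 passed with 3.82-fold on 11 fragments over 2.14 in exon 7 of 15 (chromosome 6, 43070743 to 43071081). KLC1 had 1.62-fold with 49 fragments over 29.9. KLC2 had 3 peaks with folds of at most 1.58, and 2 of them lay in the stretch that its span shares with a neighbouring gene. These 2 were classed 3' UTR but lay at 0.443% and 2.17% of the KLC2 span, near its start. They may thus belong to the neighbour, which was not tested. Neither KLC1 nor KLC2 passed.

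Of 9 cytoplasmic dynein genes other than light chains, 6 held a peak and 2 passed. DYNC1H1, the heavy chain that forms the dynein motor, held 3 peaks and none passed. Its exon 40 of 78 had 1.51-fold with 64 fragments over 42.1, and its exon 14 had 1.43-fold with 46 over 32.0. An intron peak rested on 2 fragments. DYNC1LI1 and DYNC1LI2, light intermediate chains that bind cargo adaptors, both passed. DYNC1LI2 had 2.76-fold in the 3' UTR (28 fragments over 9.52) and 2.61-fold in a promoter-class peak (48 over 17.8; chromosome 16, 66750986 to 66751374). DYNC1LI1 had 1.94-fold in a promoter-class peak with 138 fragments over 70.7, and 1.93-fold in the 3' UTR with 39 over 19.7, which did not pass. The dynein-2 genes of cilia, DYNC2H1, DYNC2I1 and DYNC2LI1, had peaks of 3 fragments only. The intermediate chains DYNC1I1 and DYNC1I2 held none.

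The dynein light chains are small proteins that bind the intermediate chains in the motor's tail, and they included both of the highest −log10 q of these families. DYNLRB1, of the roadblock type, had 3.55-fold in the 3' UTR with 198 RIP fragments over a background of 55.1 and a −log10 q of 44.4, the highest here (chromosome 20, 34540776 to 34541145). DYNLL1, the LC8 chain, had 3.14-fold with 186 over 58.5 and a −log10 q of 35.0 (chromosome 12, 120498268 to 120498633). DYNLT1, of the Tctex type, had 4.16-fold with 94 over 21.8 and a −log10 q of 25.7 (chromosome 6, 158636386 to 158636700). Their paralogs were lower. DYNLT3 had 1.84-fold with 93 over 50.1, and DYNLL2 had 1.62-fold with 81 over 49.6. DYNLL1 also held peaks of 1.75- and 1.41-fold that did not pass, with 27 and 135 fragments. DYNLRB2 and the other 4 light chain genes of the family held no peak.

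In dynactin, DCTN1, the p150 subunit that contacts dynein and the microtubule, had 3 peaks with folds of 2.71 in the 3' UTR (68 fragments over 24.5), 1.86 in exon 23 of 26 (87 over 46.2) and 1.44 in exon 7 (117 over 80.9). The last did not pass. The fold was thus highest where the background was lowest. DCTN6, a pointed-end subunit, had 3.14-fold in the 3' UTR with 29 fragments over 8.57. DCTN4 had 1.41-fold with 32 over 22.4 and did not pass, and DCTN2, DCTN3 and DCTN5 held no peak. The end-binding proteins track growing plus ends, and all 3 passed in the 3' UTR. MAPRE3 (EB3) had 2.49-fold with 32 fragments over 12.2, MAPRE2 (EB2) 2.13-fold with 91 over 42.2, and MAPRE1 (EB1) 1.60-fold with 139 over 86.3. Further peaks of MAPRE1 (1.41-fold) and MAPRE3 (2.21-fold on 3 fragments, and 1.42-fold) did not pass.

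The fold that a passing peak can have depends on its background. Over all protein-coding genes, the lowest passing fold was 2.44 at backgrounds under 10 fragments, 1.62 from 10 to 50 and 1.32 from 50 up. Of the 39 passing peaks of these families 41.0% had a background of 50 or more, against 30.8% of those of all protein-coding genes. Their median fold was 2.19, against 2.46 for all. At 50 or more the median was 1.83 for these families and 1.87 for all. From 10 to 50 it was 2.46 for these families and 2.42 for all. Under 10 it was 3.62 for 8 peaks of these families and 4.17 for all.

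The passing peaks were also ranked by fold within those ranges. There DYNLRB1 ranked 6 and DYNLL1 ranked 27 among 1537 passing protein-coding peaks with a background of 50 or more. TUBG1 ranked 64 and DYNLT1 ranked 95 of 2189 in the range from 10 to 50. KIF3B followed at 547. DYNLT3 ranked 824 and TUBB4B ranked 1530 of 1537, and DYNLL2 was the last of 2189. TUBB, with the highest fold of these families, ranked 134 of 1265 among peaks with a background under 10. The ranges are wide, and the ranks were not adjusted for where in a range a background lay. The backgrounds of DYNLT3 (50.1), DYNLRB1 (55.1) and DYNLL1 (58.5) lay near the lower limit of their range. That of DYNLL2 (49.6) lay near the upper limit of its range. These ranks describe 1 list and carry no test.

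**Figure D3:**
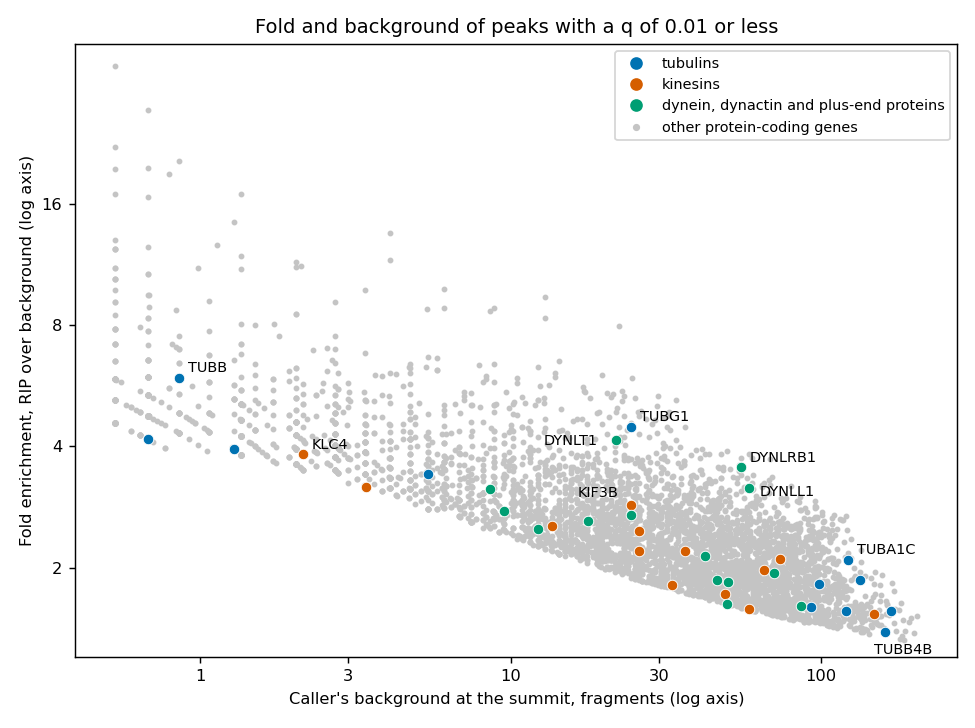
Fold enrichment (y axis, log scale) against the caller's background in fragments (x axis, log scale) of passing peaks; coloured points are the 39 peaks of tubulin, kinesin and dynein genes and grey points those of other protein-coding genes. DYNLRB1 and DYNLL1 lie near the upper edge at their backgrounds, TUBG1 and DYNLT1 lie above most peaks but under the highest at theirs, and TUBB4B lies at the lower edge.

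By feature class the shares of the passing peaks lay near those of all protein-coding genes. Of 39, 17 were 3' UTR peaks (43.6%, 95% Clopper-Pearson interval 27.8 to 60.4), against 41.3% for all protein-coding genes. Exons held 12 (30.8%, against 26.8%) and the promoter class 10 (25.6%, against 26.5%). None of the 12 intron peaks passed, beside 6.60% of the intron peaks of all protein-coding genes, and 11 of them rested on 2 or 3 fragments. The kinesin heavy chains had 7 passing peaks in exons, 3 in the 3' UTR and 2 in the promoter class. The other genes had 5 in exons, 14 in the 3' UTR and 8 in the promoter class. These are counts of peaks and not of genes, and KIF1C and KIF5B gave 3 each.

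**Figure D4:**
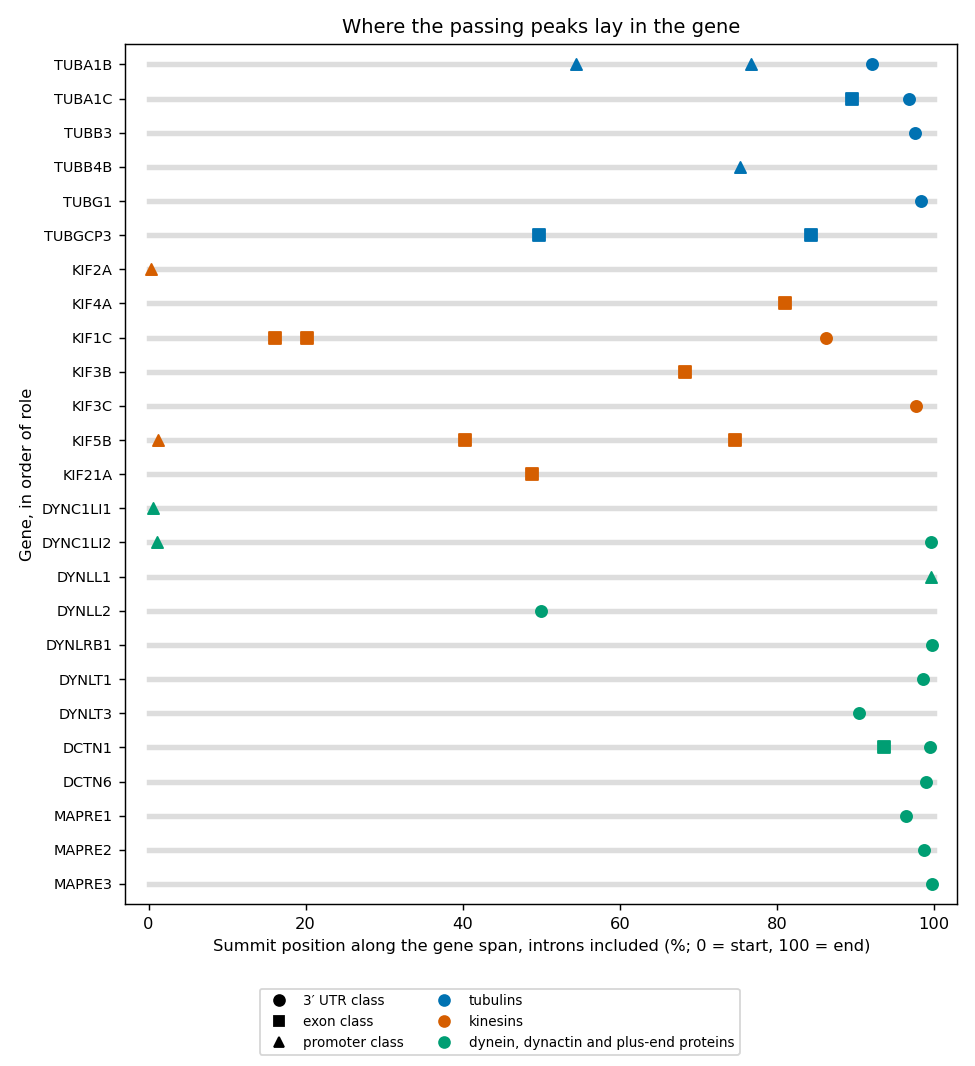
Position of the summit along the gene span from start (0%) to end (100%), introns included, for the 35 passing peaks with a known strand and span (rows are genes, ordered by role; marker shape gives the feature class). Peaks of the dynein light chains, dynactin and end-binding proteins lie mostly at the end, the exon peaks of kinesins lie along the span, and the triangle of DYNLL1 lies at 99.6%.

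The summits were next placed along the gene. In 10 of 35 passing peaks with a known strand and span the summit lay within 500 bp of the annotated gene end (28.6%, against 27.4% for all protein-coding genes). They belonged to 10 genes. DYNLRB1 (67 bp), TUBG1 (94 bp), DYNLL1 (110 bp), DYNC1LI2 (110 bp) and DYNLT1 (117 bp) were nearest, followed by MAPRE3 (129 bp), DCTN1 (167 bp), DCTN6 (261 bp), TUBA1B (285 bp) and TUBB3 (345 bp). Their median fold was 2.95, against 1.94 for the 25 peaks farther away. For all protein-coding genes the median was 2.60 within 500 bp and 2.34 farther away. The order turned round at backgrounds under 10 fragments. There the median was 2.95 near the end and 3.79 farther away for these families (2 peaks each), and 3.65 and 4.17 for all. The annotated end is that of the longest span, so a summit far from it, such as that of DYNLL2 at 6065 bp, can still lie near the end of a shorter transcript.

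Passing promoter-class peaks lay in several places, beside the 2 of TUBB. The peaks of DYNC1LI1, KIF2A, DYNC1LI2 and KIF5B had summits 255, 313, 312 and 577 bp after the RefSeq start, at the beginning of the RNA. Those of TUBB4B and TUBA1B lay 1822 to 2772 bp after the start of short genes. That of DYNLL1 lay near the gene's end, as given above. For the 40 genes with a RefSeq start and a peak on a main chromosome, no peak reached the window from 250 bp before to 50 bp after a start of its own gene. The gene that the list names beside a peak also differed from the gene assigned here for 26 of the 85 peaks. That was 30.6%, against 42.8% of the peaks of all protein-coding genes. The peak of DYNLRB1 stands under MAP1LC3A, that of KIF4A under GDPD2 and those of MAPRE1 under EFCAB8. The reverse held for a peak listed under DYNC1H1 with 4.50-fold, a 3' UTR-class peak with its summit inside PPP2R5C.

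Other microtubule genes were a list of 58 regulators, adaptors and tubulin-folding factors, with the kinesin CENPE among them. Of these, 37 held a peak and 20 a passing one. That is 54.1% of the genes with a peak, beside the 53.2% of all protein-coding genes, and the median best-peak fold was 2.61. The highest passing folds were those of TBCD, a tubulin-folding cofactor (7.73 on 15 fragments, on an alternative contig), CLASP1, which stabilises plus ends (6.39 with 56 fragments over 7.92), CAMSAP2, which binds and stabilises minus ends (5.55 with 20 over 2.78), and NDE1, a dynein regulator (5.27 on 8 fragments, on an alternative contig).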

How the data were processed

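RNA from YTHDF2 RIP and input of unmodified HCCLM3 cells was sequenced (2 libraries each), and groups came from the labels. RIP used a Magna RIP kit and libraries a SMARTer stranded total RNA kit, per the labels' protocols. HISAT2, MACS2 and hg38 are named, per the submitters' processing notes. No source used here gives versions, options or how the libraries were combined.

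The fold enrichment at each summit is a deposited ratio, RIP over background, by the authors. For −log10 p and −log10 q the deposited values of the authors' caller were taken. The deposited score was read and not used. Width, summit offset and feature class are as deposited, per the file headers. Peaks carry no strand, so a gene and an overlapping antisense RNA cannot be told apart.

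Fragments k and background b at a summit were solved from fold = (k + 1) / (b + 1) and the Poisson p of more than k fragments (scipy 1.17.1, pandas 2.3.3). The highest residual was 0.000189 on the −log10 p scale, and 100% of 2000 simulated peaks were recovered. Names, biotypes and spans came from RefSeq (GRCh38.p14), and strands from its promoter table. Where that held no strand, as for DCTN6 and DYNLL2, the deposited gene strand was used. Peaks on contigs without RefSeq spans here kept the deposited gene where its deposited span held the summit. Where 2 protein-coding genes held a summit, the deposited gene was kept if it was one of them.

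No hypothesis test was run, since the list has no value per library. Intervals are exact Clopper-Pearson at 95% and cover counting error only. They treat peaks as independent, although 8 of the 28 passing genes held 2 or more passing peaks. The genes and gene lists were chosen with earlier results of these data known. Every gene with a peak is named. Full values were planned for up to 4 genes per role with the highest folds at a q of 0.01 or less, and for genes with 3 or more peaks. They were also planned for the 3 leading by fold and by fragments. Some of these genes, such as DYNC2H1 with 4 peaks of 3 fragments, are given in part. Values of other genes were added after they were seen, as were the distances to gene ends and the background ranges. Sequence at the summits was not analysed here. Alternatives covered gene assignment, contigs, feature classes, thresholds and the peak standing for a gene.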

Additional observations from a re-analysis of the deposited data

How the results depend on the processing

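Of 27 alternative values computed under 9 settings, 22 stayed within the limits set for them: 1.5 times for a count, and the binomial interval for a share or median. The other 5 moved, all where only peaks under a set q were kept, and why they moved was not tested. At a q of 0.05 or less, 30 genes held a peak and 28 passed (93.3%, beside 86.8% of all protein-coding genes with such a peak). The 3' UTR share of their peaks was 44.4%, against 32.9% of all 85 peaks. At a −log10 q of at least 5, 15 genes held a peak. Every gene kept at that cut passes, as did all 2198 protein-coding genes with such a peak. The median best-peak log2 fold of the 15 was 1.38, against 1.36 with all peaks. With the gene named in the list, 41 genes held a peak and 21 passed (51.2%, beside 50.1% of all protein-coding genes with a peak). At a fold of at least 2, 34 held a peak and 19 passed (55.9%, beside 55.8%). Both gaps were narrower than that between 58.3% and 53.2% with all peaks, while with exon, promoter and UTR peaks only it was 65.1% beside 57.9%. With 10 or more fragments 28 passed, and of all protein-coding genes 3473 of 4979 with such a peak passed (69.8%). No paired analysis was possible because the list combines the libraries, so leaving out a replicate was not run either. Letters at the summits were planned and not run. Of the 20 genes that did not pass, 11 had 4 or fewer fragments at every peak, and few fragments limit any statement on these.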
